A study of Homo sapiens with 4 samples.

Results

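Ribosomal protein pseudogenes are gene copies whose symbols carry the name of a ribosomal protein gene followed by P and a number. They were examined in RNA from 2 human prostate cancer lines, DU145 and PC3. A gene of the deposited count table was included when its symbol had that form and its counts summed to at least 50 over the 4 libraries, which left 155 of 547 such symbols among the 35211 genes listed. The members were thus chosen by their summed counts, and the abundance of the members is given as a description. Just inside the limit were RPL21P39, RPL23AP47 and RPL37P6, each with 50 counts. Just outside it were RPS20P21 with 49 counts, and RPL12P1 and RPL29P11 with 48 counts each.

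The 4 libraries were 1 each of DU145 cells with a negative control plasmid, DU145 cells with a plasmid overexpressing circ0003553, PC3 cells with the negative control plasmid and PC3 cells with the circ0003553 plasmid. They are called control and circ0003553 libraries here, and the titles of all 4 samples name the gene RCAN3. The control cells were thus also transfected. Nothing in the labels says whether libraries came from separate cultures, so p-values measure only the spread between these libraries. In bulk RNA, fewer cells with a transcript and less transcript per cell cannot be told apart.

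Most ribosomal protein pseudogenes are processed pseudogenes. Such a copy arises when the messenger RNA of a gene is reverse transcribed and the product is inserted elsewhere in the genome, without introns and usually without the promoter of the gene it came from, its parent. Ribosomal protein messenger RNAs are abundant in growing cells, and the human genome carries many copies of most of them. A young copy is nearly identical to the parent, so a short sequencing read from the parent can match the copy as well, and how such reads were counted here is not given in the sources used. The proteins of the RPL genes belong to the large subunit of the cytosolic ribosome and those of the RPS genes to the small subunit.

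For each pair of copy and parent below, the gap-free coding stretch of at most 120 bases with the most differences was chosen. Other gap-free coding stretches of that length differ at as many bases or fewer. The sequences below thus show where copies and parents differ most. They are stretches of the coding sequence read 5′ to 3′ from the transcripts of GENCODE release 29 (GRCh38, the same build as hg38), and capitals mark the bases that differ between the copy and the parent of the pair. RPL31P11 and RPL12P37 were almost confined to DU145, as described below, and hold no run of 50 bases that matches the parent. The stretches lie at chr1:161685014-161685133 on the minus strand for RPL31P11, whose pair differs at 8 of 120 bases, and at chr17:80976461-80976580 on the plus strand for RPL12P37, whose pair differs at 14. RPL13P12 went against its parent between the lines. Its stretch, at chr17:17383782-17383901 on the minus strand, differs from the parent at 4 of 120 bases. RPL13AP7 at chr21:25362045-25362164 on the plus strand (6 differences) and RPL23AP42 at chr3:161429221-161429340 on the minus strand (2 differences) followed their parents. RPL41P5, at chr12:93083601-93083675 on the minus strand, is identical to the 75 coding bases of RPL41. The parent stretches lie at chr2:101002779-101004247 (plus, RPL31), chr9:127449692-127451309 (minus, RPL12), chr16:89561234-89561353 (plus, RPL13), chr19:49490544-49491040 (plus, RPL13A), chr17:28722771-28722890 (plus, RPL23A) and chr12:56116788-56117521 (plus, RPL41). Those of RPL31, RPL12, RPL13A and RPL41 are joined across introns.
RPL31P11: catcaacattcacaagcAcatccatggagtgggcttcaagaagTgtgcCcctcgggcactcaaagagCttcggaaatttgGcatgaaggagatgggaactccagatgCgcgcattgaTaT
RPL31: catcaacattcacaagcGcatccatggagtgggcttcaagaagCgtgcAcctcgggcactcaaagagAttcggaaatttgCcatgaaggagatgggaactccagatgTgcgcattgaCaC
RPL12P37: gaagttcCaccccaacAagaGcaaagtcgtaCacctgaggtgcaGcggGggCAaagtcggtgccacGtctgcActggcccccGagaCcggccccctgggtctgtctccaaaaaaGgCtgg
RPL12: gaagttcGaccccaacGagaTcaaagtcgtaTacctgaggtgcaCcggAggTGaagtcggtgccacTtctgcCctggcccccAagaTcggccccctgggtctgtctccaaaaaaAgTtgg
RPL13P12: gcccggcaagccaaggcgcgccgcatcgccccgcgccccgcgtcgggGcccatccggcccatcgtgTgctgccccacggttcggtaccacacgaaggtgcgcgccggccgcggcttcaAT
RPL13: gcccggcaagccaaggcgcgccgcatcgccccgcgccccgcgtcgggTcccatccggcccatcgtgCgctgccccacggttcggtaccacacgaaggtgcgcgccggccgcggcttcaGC
RPL13AP7: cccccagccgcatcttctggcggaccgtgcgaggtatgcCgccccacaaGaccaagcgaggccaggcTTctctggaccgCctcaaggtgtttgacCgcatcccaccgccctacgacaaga
RPL13A: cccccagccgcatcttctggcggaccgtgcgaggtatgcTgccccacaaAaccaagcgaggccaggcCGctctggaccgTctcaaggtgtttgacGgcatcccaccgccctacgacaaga
RPL23AP42: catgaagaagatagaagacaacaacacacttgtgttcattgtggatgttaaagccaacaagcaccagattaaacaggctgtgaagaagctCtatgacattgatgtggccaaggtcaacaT
RPL23A: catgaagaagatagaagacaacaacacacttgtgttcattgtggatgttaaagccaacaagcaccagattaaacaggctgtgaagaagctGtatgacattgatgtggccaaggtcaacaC
RPL41P5: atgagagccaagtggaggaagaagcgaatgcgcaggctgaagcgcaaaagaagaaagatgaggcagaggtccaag
RPL41: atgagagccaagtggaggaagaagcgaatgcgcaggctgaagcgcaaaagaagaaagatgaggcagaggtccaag

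Over whole copies, the annotation held a transcript for 154 of the 155 members, and 151 had the same coordinates in the deposited table. It classes 136 as processed pseudogenes, 16 as transcribed processed pseudogenes and 2, RPL23AP82 and RPL32P3, as transcribed unprocessed pseudogenes. Identity to the parent transcript over the aligned bases ranged from 67.9% (RPL7P21, 190 bases aligned) to 100%, with a median of 95.8%. It was at least 95% for 86 members, at least 99% for 26 and under 90% for 13. For 103 members at least 99% of the coding sequence of the parent was aligned. Each copy was also divided into overlapping windows of 50 bases. In 31 members over 50% of the windows occurred letter for letter in a transcript of the parent, in 98 members some did but at most 50%, and in 25 members none did. These 3 classes are used below to group the members by likeness to the parent. They do not count windows that occur in other ribosomal protein pseudogenes, so a copy with no parent window need not be unique. Such windows made up 100% of those of RPL23AP24 and 77.3% of those of RPL23AP4. For RPL31P11 they made up 1.55% and for RPL12P37 0%.

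The members came from 51 parents, 114 from large-subunit and 41 from small-subunit genes. RPL23A had the most copies with 18 of 55 matching symbols, followed by RPL7 with 15 of 47, and RPL5 and RPL12 with 9 each. Their listed lengths ran from 78 to 4504 bases with a median of 546, and 142 were listed as 1 exon block. In the deposited coordinates 78 members lay between genes, 59 inside an intron of another gene, and 18 shared exon bases with another gene, 8 of these on the same strand. Members that shared exon bases had a median of 533 summed counts, against 134 for intronic members and 140 for those between genes.

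Library totals ran from 33438509 to 39488890 counts. Even numbers prevailed among low counts, with 70.3% to 75.3% of values from 1 to 20 in each library, as were 86.5% to 92.3% of the counts of members. A fragment may thus often have been counted as 2, and counting intervals are too narrow. RCAN3, the gene named in the titles, had 639 and 816 counts in the DU145 control and circ0003553 libraries and 1212 and 3798 in the PC3 libraries. The epithelial genes KRT8, KRT18 and EPCAM had from 2732 to 112105 counts in every library. CDH1, also an epithelial gene, had 4821 and 2478 counts in DU145 but 84 and 108 in PC3. CTNNA1, which is known to be lost in PC3, had 139 and 212 counts there against 15074 and 15131 in DU145. TMPRSS2, a gene of luminal prostate cells, had 0 to 10 counts. Of the other cell types the leukocyte gene PTPRC had 0 to 2 counts, the fibroblast gene DCN 0 to 2 and the endothelial gene CDH5 0 to 6. COL1A1 had 124 to 1519 and PECAM1 10 to 595 counts, both higher in PC3.

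The members together held 42322 counts in DU145 with the control plasmid and 34093 with circ0003553, and 36241 and 37662 in PC3. All lists of 4 values below follow this order of line and plasmid. That was 0.111%, 0.0935%, 0.108% and 0.0954% of each library, and 4.65%, 4.01%, 5.11% and 4.52% of the counts of the 51 parents. Both shares were lower in the circ0003553 library of each line than in its control library. A few members held most of the counts. The median member had 161 summed counts and the highest 27808, the 5 highest held 46.3% and the 10 highest 59.9% of all 150318 member counts. The other 392 matching symbols, under the limit, had a median of 6 summed counts.

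RPL7P1, an intronless copy of the large-subunit gene RPL7, led with 5992, 3878, 9158 and 8780 counts. It lies at chr5:150094302-150095048 (hg38, plus strand) in an intron of CSF1R, which runs on the opposite strand and had 7 to 24 counts. Both PC3 libraries were above both DU145 libraries, and the circ0003553 library was the lower of each line. RPL23AP42, a copy of RPL23A at chr3:161429127-161429597 (minus strand), had 6768, 4752, 2062 and 1948 counts. It was higher in DU145. Its exon bases overlap RP11-3P17.5 on the opposite strand over 217 bases, 46.1% of the copy. RP11-3P17.5 had 6459, 4466, 1956 and 1855 counts. Reads on the shared bases may have been counted for both genes, which was not tested. RPL31P11, with 5070, 5192, 8 and 6 counts, is described below. RPS2P5, a copy of the small-subunit gene RPS2 in an intron of TAOK3, had 2598, 2698, 1996 and 2284 counts, and its line difference of -0.20 ± 0.10 did not pass the test given below.

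**Figure D1:**
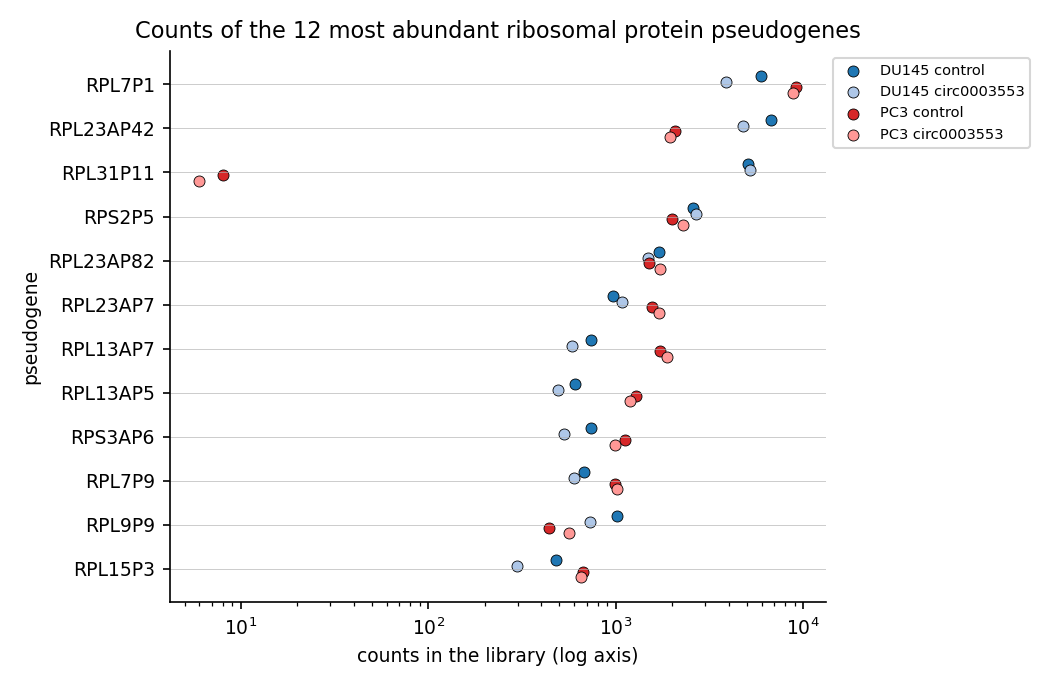
Counts (log axis) of the 12 members with the highest summed counts, with 1 point per library, blue for DU145 and red for PC3, dark for control and light for circ0003553. RPL31P11 stands apart with 8 and 6 counts in the PC3 libraries against 5070 and 5192 in the DU145 libraries.

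Per length, most members were far below the parent. Levels here are RPKM, reads scaled to the listed gene length and to the total of the library. The listed length of a parent covers all its transcripts, which lowers the RPKM of the parent. The median member was at 1.64%, 1.29%, 1.59% and 1.84% of the RPKM of its parent. No member was above its parent in all 4 libraries and 5 were in at least 1. Above 10% of the parent in all libraries were 23 members, 18 of which had over 50% of their windows in the parent, and 51 members were under 1% in all libraries.

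The level followed likeness to the parent. The 31 members with over 50% of windows in the parent were at a median of 18.6%, 18.4%, 21.7% and 19.5% of the RPKM of the parent. For the 98 members with fewer shared windows the medians were 1.04%, 0.808%, 1.28% and 1.09%, and for the 25 without a shared window 0.722%, 0.624%, 0.593% and 0.812%. RPL41P1, whose 81 bases match RPL41 in every window, was at 128%, 91.5%, 113% and 113% of RPL41. RPL7P1 was at 105%, 78.6%, 113% and 96.1% of RPL7. RPS28P7, all of whose windows match RPS28, was at 45.3%, 70.6%, 103% and 102%. RPL41P1 and RPL7P1 thus lay between 78.6% and 128% of the parent in every library, and RPS28P7 was nearer to the parent in PC3 than in DU145. Of the members with no shared window RPL31P11 was the highest in DU145 but not in PC3, at 277% and 346% of RPL31 in DU145 and 0.433% and 0.279% in PC3. The part of reads of the parent in the counts of a copy was not tested.

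**Figure D2:**
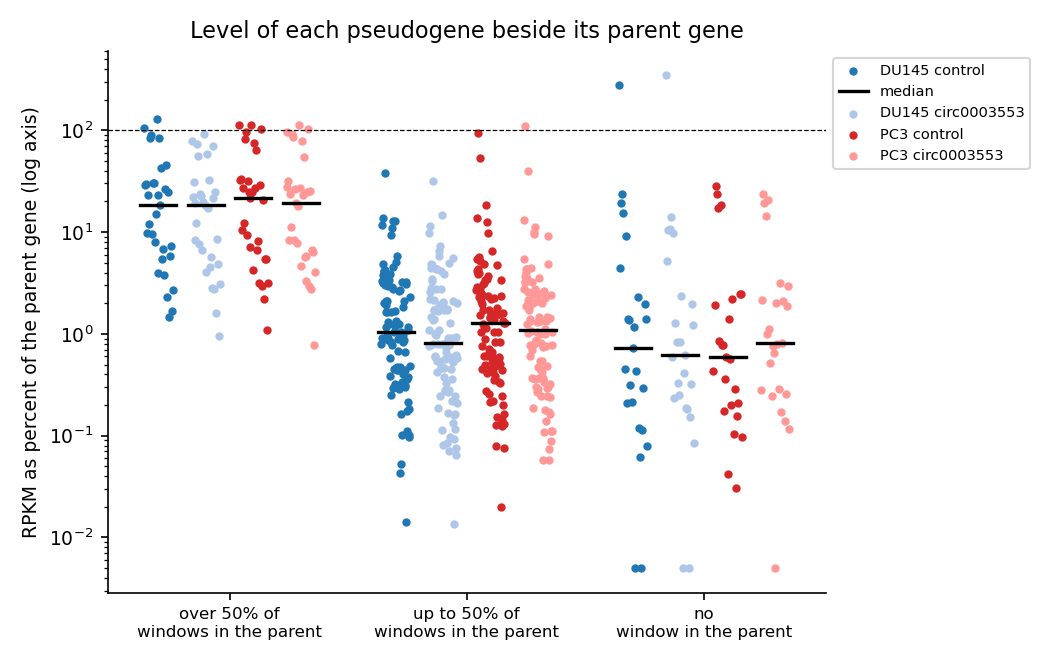
RPKM of each member as a percent of the RPKM of its parent (log axis) by library, in 3 classes by the share of 50-base windows found in the parent. Black bars are medians, from 18.4% to 21.7% in the class with most shared windows and from 0.593% to 0.812% in the class with none. The dashed line marks 100%, and points at the bottom stand for members listed at 0.

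Between the lines, PC3 and DU145 differed in many members. The edgeR quasi-likelihood test, fitted on all 21731 genes that passed a filter on low counts, included 154 members, all but RPS17P11. With Benjamini-Hochberg adjustment at 0.05, 45 members were higher in PC3, 26 were lower and 83 were not called. That is 29.2% and 16.9% of the members tested, beside 33.1% and 32.8% of all genes tested (65.9% in either direction), so members were not called more often than other genes. The median difference was 0.22 (log2, PC3 against DU145) over the members and 0.00 over all genes tested. With 2 members at 0 in both DU145 libraries, 1 of them tested, the median with that member at its bound was also 0.22. Members that passed the limit of 50 counts through 1 line had to differ. Among the 129 members with at least 25 counts in each line, 40 were higher and 17 lower. The counts depended on single libraries and on the tool: without the PC3 control library 28 were higher and 17 lower, without the PC3 circ0003553 library 35 and 16, and with DESeq2 24 and 11. Called under every alternative that tested them were 23 of the 45 and 11 of the 26.

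Among large-subunit copies 33 were higher and 23 lower of 114, with a median of 0.16. Among small-subunit copies 12 were higher and 3 lower of 40, with a median of 0.30. Of the 79 genes of cytosolic ribosomal proteins 35 were higher in PC3 and 25 lower, with a median of 0.11. Of the 51 parents 17 were higher and 20 lower.

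The most uneven member was RPL31P11, a copy of the large-subunit gene RPL31 listed at chr1:161683695-161685252 (minus strand). The DU145 libraries held 5070 and 5192 counts of it and the PC3 libraries 8 and 6. The lines did not overlap, and the plasmid change of 0.11 ± 0.14 did not pass its test. The fitted difference was -9.40 ± 0.19 (log2, SE, edgeR quasi-likelihood test, adjusted p = 2.26e-14), and it was called under every alternative. RPL31P11 passed the limit of 50 counts through DU145 alone and so had to differ. Its p-value, calls and fold are thus given as description. DU145 held 683 times the PC3 level, with a 95% exact conditional binomial interval of 407 to 1250 from the pooled counts, or 331 to 1700 with counts halved, which covers counting error only. RPL31 itself had 6814, 5573, 6860 and 7985 counts and was 0.37 ± 0.10 higher in PC3. Of the 1558 bases listed for RPL31P11 the annotated copy takes 372, with 95.2% identity to the RPL31 transcript. The next genes in the table with at least 50 summed counts are FCGR2B, 5041 bases away, and FCRLB, 36311 bases away. FCGR2B encodes a receptor for the constant part of antibodies. FCGR2B had 334, 207, 4 and 4 counts, and FCRLB had 22, 21, 12 and 14.

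Other members with few or no counts in 1 line were also found, chosen for description after their values were seen. RPL12P37, a copy of the large-subunit gene RPL12, had 47, 50, 2 and 0 counts. DU145 held 45.2 times the PC3 level (95% interval 12.2 to 379, or 7.82 to 1840 with counts halved, counting error only), while RPL12 differed by -0.13 ± 0.10. Its nearest listed gene with at least 50 summed counts, CTD-2561B21.5, 5241 bases away, had 125, 160, 2 and 15 counts. CHMP6 on the other side, 14650 bases away, had 895, 979, 1254 and 1696. RPL23AP4 was at 0 in both DU145 libraries and had 35 and 55 counts in PC3, at least 15.9-fold higher in PC3 when each DU145 library is set to a floor of 3 counts. The nearest gene listed on its left with at least 50 summed counts, PRMT2, 25640 bases away, had 4267, 3244, 3343 and 3901 counts. The lines of RPL12P37 and RPL23AP4 did not overlap. Both passed the limit of 50 counts through 1 line and so had to differ, and their folds are given as description.

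RPL13P12 also went against its parent, in the other direction. It lies between genes at chr17:17383377-17384012 (minus strand) and had 162, 132, 508 and 740 counts, so that both PC3 libraries were above both DU145 libraries. The difference was 2.17 ± 0.17 (log2, SE, edgeR quasi-likelihood test, adjusted p = 2.57e-08). RPL13 had 11597, 11107, 5222 and 6578 counts and fell by 0.85 on the same scale. Per length the copy was at 13.6% and 11.5% of RPL13 in DU145 and at 94.4% and 109% in PC3. Of its windows 47.4% occur in RPL13.

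**Figure D3:**
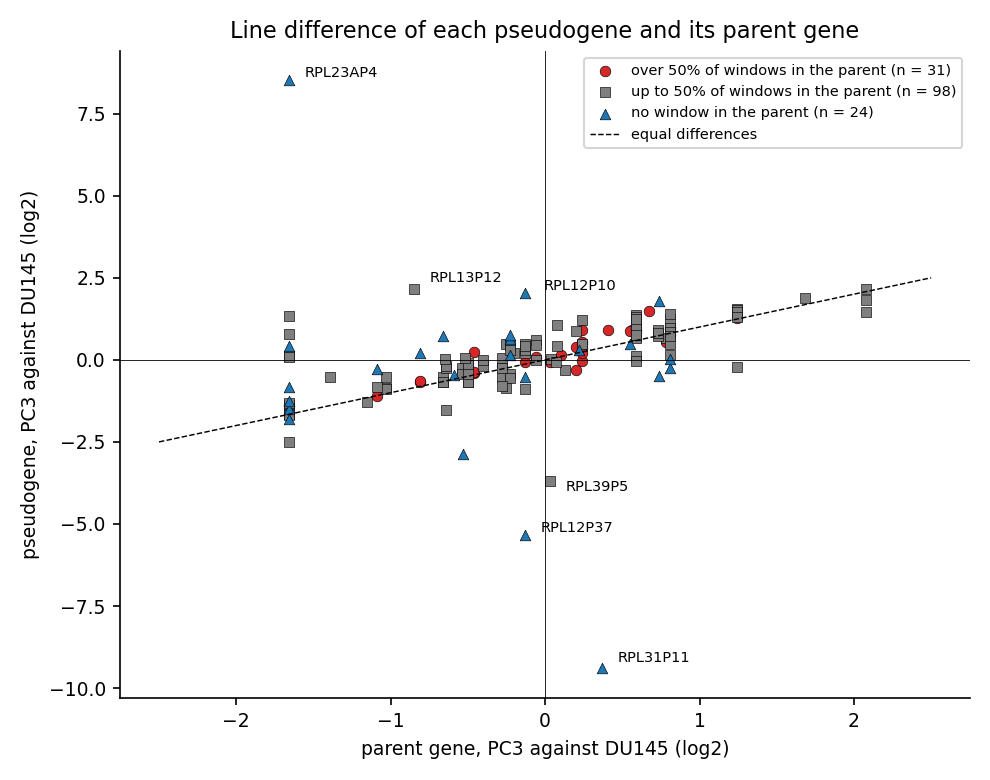
Fitted difference of PC3 against DU145 (log2) of each tested member against that of its parent, with the class of shared windows as colour and shape and a dashed line of equal differences. Members with over 50% of windows in the parent lie along the line, and RPL31P11, RPL12P37 and RPL23AP4 lie farthest from it. RPL23AP21, with no transcript in the annotation, is left out, and the position of RPL23AP4, at 0 in DU145, depends on the prior count of the fit.

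Copies with long stretches of parent sequence differed between the lines as the parents did. Over the 31 members with over 50% of windows in the parent, from 20 parents, the difference of the member and that of the parent had a Pearson correlation of 0.918 and a Spearman correlation of 0.90. The median absolute gap was 0.19 (log2), and no member was 1 or more away. Over the 98 members with fewer shared windows the correlations were 0.67 and 0.725, with a median gap of 0.33. Over the 24 tested members with no shared window they were -0.17 and 0.115, with a median gap of 0.92 and 11 members 1 or more away. The last class holds RPL31P11, RPL12P37 and RPL23AP4, which passed the limit of 50 counts through 1 line and so had to differ. Among members with at least 25 counts in each line, a restriction chosen after the values were seen, the Pearson correlations were 0.918 over 31, 0.706 over 83 and 0.256 over 15, with median gaps of 0.19, 0.33 and 0.83. The negative sign in the class with no shared window thus rested on members counted in 1 line. The points of a family share a parent, all points share the 4 libraries, and members with fewer shared windows also had fewer counts (median 1190 summed counts in the first class, 128 and 99 in the others).

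The largest family held both kinds of copy. RPL23A fell by 1.66 from DU145 to PC3, with 141197, 129347, 37649 and 41862 counts, the most of any parent. Of its 18 copies 9 were lower in PC3, 4 higher and 5 not called. The lower ones included RPL23AP42 (-1.39 ± 0.10), RPL23AP74 (-1.47 ± 0.17), RPL23AP2 (-1.39 ± 0.17) and RPL23AP63 (-1.64 ± 0.26). All 4 share exon bases with another listed gene, and RPL23AP63 had the same 224, 128, 48 and 54 counts as its partner RP11-472I20.5. The other 5 lower copies were RPL23AP53 (-0.83 ± 0.19), RPL23AP65 (-2.49 ± 0.54), RPL23AP64 (-1.81 ± 0.52), RPL23AP3 (-1.67 ± 0.58) and RPL23AP24 (-1.51 ± 0.55). Of these RPL23AP53, RPL23AP64 and RPL23AP24 share no window with RPL23A. RPL23AP53, with 506 counts in DU145 and 267 in PC3, thus fell without a shared window. RPL23AP64, RPL23AP65, RPL23AP24 and RPL23AP3 had 17, 12, 16 and 13 counts in PC3 against 63, 74, 49 and 46 in DU145. With so few counts in PC3, they could pass the limit on summed counts only by being higher in DU145. Their differences are given as description. All 5 calls were lost with DESeq2, and 3 of them also when 1 library was left out. For RPL23AP64 this was the DU145 circ0003553 or the PC3 control library, for RPL23AP3 the DU145 control or the PC3 circ0003553 library, and for RPL23AP24 any library but the DU145 control. Some copies did not follow the parent. RPL23AP7, a transcribed processed pseudogene in 3 exon blocks with 92.3% identity, had 966, 1074, 1554 and 1705 counts and was 0.78 ± 0.12 higher in PC3. RPL23AP82, in 6 blocks, had 1698, 1483, 1512 and 1726 counts and a difference of 0.13 ± 0.10, which did not pass the test. In each of these copies 466 bases were aligned to RPL23A, while 2128 bases are listed for RPL23AP7 and 4250 for RPL23AP82. Their counts thus cover much sequence outside the aligned part. Of their windows 72.9% (RPL23AP7) and 79.0% (RPL23AP82) occur in other ribosomal protein pseudogenes. Both PC3 libraries of RPL23AP7 were above both DU145 libraries, while those of RPL23AP82 lay on either side.

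RPL7 was 0.81 ± 0.10 higher in PC3, and of its 15 copies 9 were higher and none lower. RPL7P1 differed by 1.0 ± 0.10 and RPL7P9 by 0.77 ± 0.12. RPL7P21 and RPL7P22, which share no window with RPL7, had differences of -0.25 and 0.02 and were not called. In each of them only 190 bases were aligned to RPL7, over 25.5% of its coding sequence, with 67.9% and 68.9% identity. RPL13A was 1.24 ± 0.10 higher, and 5 of its 6 copies were higher, between 1.28 and 1.55. RPL13AP7 had 740, 587, 1717 and 1878 counts, with both PC3 libraries above both DU145 libraries. The exception was RPL13AP20, at chr12:12875499-12876107 (plus strand), with 188, 278, 189 and 180 counts and a difference of -0.22 ± 0.22. Its windows match RPL13A in 24.1% of cases, close to the 27.4% of RPL13AP7. All 3 copies of RPS24, a small-subunit gene that rose by 2.08 ± 0.10 in PC3, were higher, and RPS24P8 had 28, 34, 88 and 116 counts. Of the 9 copies of RPL12, which did not pass the test itself, 7 were not called. RPL12P10 was higher with 4, 11, 14 and 48 counts. This call was lost without the DU145 control or the PC3 circ0003553 library and with DESeq2 (highest adjusted p = 0.24 over the alternatives). RPL12P10 passed the limit on summed counts mainly through PC3, with 62 counts there against 15 in DU145. Its line difference is thus given as description.

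**Figure D4:**
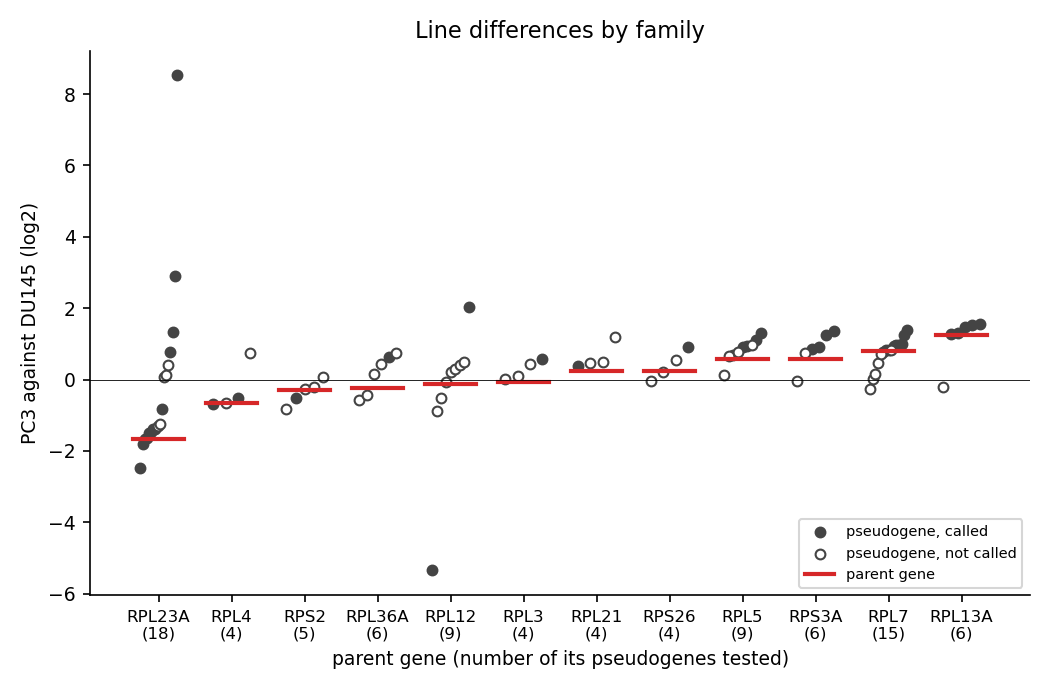
Fitted difference of PC3 against DU145 (log2) of each member, for the parents with at least 4 tested members, ordered by the difference of the parent (red bars). Filled points passed the edgeR test. The RPL23A copies reach from -2.49 to 8.52 (RPL23AP4, a value that depends on the prior count) around a parent at -1.66, and those of RPL13A lie between 1.28 and 1.55 except for RPL13AP20 at -0.22.

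Intronic members were seldom near the gene around them in line difference, while members that share exons on the opposite strand were mostly near their partner. Over the 51 intronic members whose host was tested, the correlation of the difference of the member with that of the host was 0.0165 (Pearson) and 0.0411 (Spearman), and 27 had the same sign. The member was nearer to its parent than to its host in all but 11 of them. Over the 9 tested members that share exon bases on the opposite strand, 7 were nearer to the partner than to the parent. Their median gap from the partner over the 9 was 0.07. Reads on shared bases may have been counted for both genes, so nearness to a partner may follow from the overlap. This was not tested. Over the 8 that share exon bases on the same strand, 4 were nearer to the partner, with a median gap of 0.82 from the partner and 0.72 from the parent. RPL39P5 shares exon bases with AMOTL2 on the same strand. It had 69, 59, 3 and 6 counts and a difference of -3.69 ± 0.52, beside -2.84 for AMOTL2 and 0.03 ± 0.10 for RPL39. RPL39P5 passed the limit on summed counts through DU145 alone, with 128 counts there against 9 in PC3, and so had to differ. It was chosen for description after its values were seen, and its difference is given as description. RPL32P29 lies on exon bases of RPS29 and had 74, 70, 198 and 270 counts, 1.79 ± 0.21 higher in PC3, while RPS29 differed by 0.11 and RPL32 by 0.74.

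For the plasmids, circ0003553 libraries were compared with control libraries with the cell line as a block, so that the line was the only replicate. With edgeR's quasi-likelihood test no member passed the Benjamini-Hochberg threshold of 0.05 in either direction, beside 0.465% of all genes tested, 0.396% higher and 0.069% lower. DESeq2 called 1 member lower, RPL7P1, and limma-voom none. At an unadjusted p under 0.05 there were 20 members, 18 of them lower with circ0003553, which is to be read beside 8.88% of all genes in either direction and 4.01% lower. Over the 154 members the median change was -0.18 (log2), and 104 (67.5%) were below 0, against 0.00 and 49.5% over all genes tested. The median was -0.02 over the 79 ribosomal protein genes, 47 of which were below 0. Their summed share of counts was 3.27% and 3.17% in DU145 and 3.43% and 3.38% in PC3.

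The lean toward lower values went with likeness to the parent. Of the 31 members with over 50% of windows in the parent 26 were below 0, with a median of -0.23. Of the 98 with fewer shared windows 69 were below 0, with a median of -0.20. Of the 24 with none 8 were below 0, with a median of 0.13. No test compared these classes. Other pseudogene families, 156 copies of genes such as EEF1A1, HNRNPA1, NPM1, HMGB1 and GAPDH, keratin copies and mitochondrial-like copies among them, had a median of -0.26. Of these 117 were below 0 and 3 were called lower. Mitochondrially encoded genes also took a smaller share of counts in the circ0003553 library of each line (6.28% and 4.96% in DU145, 6.88% and 6.34% in PC3), and their part in the result was not tested.

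RPL7P1 had the lowest p, at -0.42 ± 0.10 (edgeR quasi-likelihood test, adjusted p = 0.0969) beside -0.10 ± 0.10 for RPL7. The circ0003553 library held 0.695 of the control level in DU145 and 0.798 in PC3. RPL23AP42 followed at -0.38 ± 0.10 (adjusted p = 0.15 by edgeR), with ratios of 0.754 and 0.787. RPL15P3 was at -0.44 ± 0.14 beside -0.03 ± 0.10 for RPL15, and RPS3AP6 at -0.41 ± 0.12 beside -0.16 ± 0.10 for RPS3A. RPL36AP45, which shares no window with RPL36A, was at -0.55 ± 0.18 with 306, 166, 242 and 232 counts, beside 0.16 ± 0.11 for RPL36A. In all 5 the ratio of circ0003553 to control was below 1 in each line. The highest fitted change, chosen for description after its value was seen, was 1.51 ± 0.53 for RPL12P10.

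**Figure D5:**
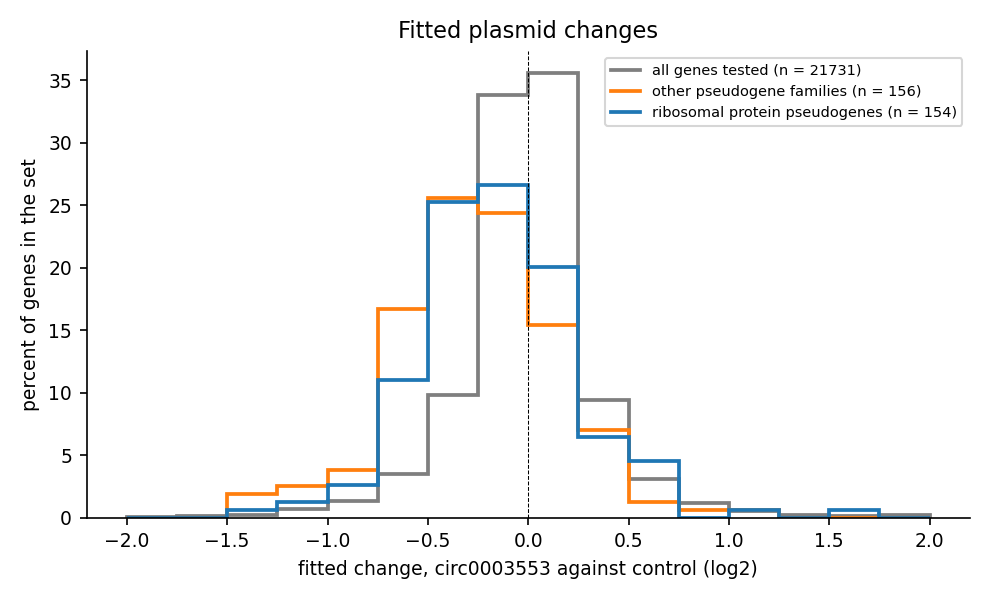
Percent of genes in bins of 0.25 of the fitted change with circ0003553 (log2) for the 154 tested members (blue), 156 copies of other families (orange) and all 21731 genes tested (grey). Both pseudogene sets are shifted to the left of all genes, with medians of -0.18 and -0.26 against 0.00, and values beyond 2 in either direction are put in the outermost bin.

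Within a line, members with at least 50 counts in that line were compared with no test, since each group was 1 library. In DU145, 68 of 99 members (68.7%) had a ratio below 1, against 49.2% of all genes, with a median of -0.23 (log2). None was at least 2-fold higher (1.03% of all genes) and 1 was at least 2-fold lower (0.992% of all genes), RPL5P3 with 36 and 14 counts. In PC3, 69 of 105 (65.7%) were below 1, against 49.9% of all genes, with a median of -0.14. There 2 members were at least 2-fold higher (0.824% of all genes) and 2 lower (0.334% of all genes). The lower ones were RPS3AP5, with 72 and 38 counts, and RPS2P7, with 40 and 22. The higher ones were RPL12P10, with 14 and 48 counts, and RPS17P11.

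RPS17P11, at chr5:52282567-52282859 (plus strand), had 0, 0, 1 and 74 counts, so nearly all came from 1 library, the PC3 circ0003553 library. The ratio within PC3 was 61.6 (95% exact conditional binomial interval 10.7 to 2470, or 5.2 to 1250 with counts halved, counting error only). No second library of that group exists here to compare it with. RPS17P11 passed the limit of 50 counts through the PC3 circ0003553 library alone. A high ratio was thus set by the choice of members, and the interval is given as description. Among genes with at least 50 summed counts, the nearest left of RPS17P11 was ISL1, 887829 bases away, with 0, 0, 46 and 68 counts. On the right CTD-2288O8.1, 392334 bases away, had 26, 40, 182 and 183. The 2 neighbours were thus even within PC3, while RPS17P11 was not.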

How the data were processed

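RNA from 4 libraries, 1 for each line and plasmid, had been depleted of ribosomal RNA and made into strand-specific paired-end libraries, per the labels' protocols. Tools listed, with no role, in the submitters' processing notes are edgeR 3.12.1, Subread 1.5.1, featureCounts and Trimmomatic 0.36, with the build hg38. Not given in the sources used here are the aligner, the strand setting, the treatment of reads that match several places and the use of molecular identifiers. The files deposited by the authors hold whole-number counts and RPKM of each gene. The deposited RPKM equalled counts divided by length and library total within a relative 1e-09.

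The members, lists and the naming rule were chosen with earlier results of these data known. The rule named the 12 members with the highest counts, the highest and lowest plasmid changes, line differences and within-line ratios among members with at least 200 counts, the extremes against the parent, and members next to the limit. Other members named are described as chosen after their values were seen or as members of their family.

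An additive model of line and plasmid was fitted to the counts in edgeR 4.0.16 under R 4.3.3 and tested by quasi-likelihood, with TMM scaling, filtering by plasmid and Benjamini-Hochberg adjustment over 21731 genes. The design leaves 1 residual degree of freedom, and moderation added a prior of 13.4. The pairing of plasmids within a line comes from the labels. DESeq2 1.42.0, limma-voom (limma 3.58.1), other scalings, no filter, halved counts, genes that share no exon base and leaving out libraries were alternatives. Within lines, log2 ratios of TMM-scaled CPM were taken after adding a prior count of 2. The code was tested on simulated data. Total counts were 38047428, 36461229, 33438509 and 39488890. Intervals are 95% exact conditional binomial and cover counting error only.

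Copies were aligned locally to protein-coding transcripts of the parent, untranslated parts included, with Biopython 1.88. Sequences came from GENCODE release 29 transcripts matched by symbol, and identity was taken over the aligned bases. A window counted as shared when its 50 bases occurred unchanged in any transcript of the parent. Some genes and the results that need them are not reported here.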

Additional observations from a re-analysis of the deposited data

How the results depend on the processing

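No called value turned in direction under any alternative run for it. With DESeq2, 1 member was called lower with circ0003553, and between the lines 24 were higher and 11 lower. Leaving out 1 library at a time, members higher in PC3 numbered 28 to 44 and members lower 16 to 22. Copies of other families called lower with circ0003553 numbered 5 with RLE size factors and 0 with limma-voom, and between the lines DESeq2 called 24 of them higher and 13 lower. The cause of these shifts was not tested. Leaving the replicate block on the line out of the plasmid model called 0 members higher and 0 lower, and leaving the plasmid out of the line model called 40 higher and 24 lower. The replicate block thus changed no count of members by more than 1.5 times.

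Members 2-fold lower within DU145 numbered 2 with a prior count of 0.5, 2 with total-count scaling and 0 at 200 or more counts in the line. Within PC3, 0 were higher and 0 lower at 200 or more counts, and 1 was lower with counts halved. Not divided by length, the median level beside the parent was 0.307%, 0.245%, 0.297% and 0.296% of the counts of the parent. A limit of 20 summed counts would give 240 members and one of 200 would give 70. Sharing exon bases on the same strand only held for 8 members. Of single members named by rule, 1014 values over the alternatives kept their side of the threshold, 50 lost it and 6 gained it. The line calls of RPS7P1, RPL41P1, RPL35P2, RPL21P75, RPL37P6, RPL32P3, RPL13AP3 and RPS2P46 were each lost without at least 1 library. The median plasmid change of the members was -0.23 in DU145 alone and -0.13 in PC3 alone.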
